A study of Mus musculus with 24 samples.

Results

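The comparison set the retinal pigment epithelium (RPE) of mice sampled in the early night against that of mice sampled in the late afternoon. The night group joined 2 mice taken 15 h after light onset and 3 taken 16 h after it, both in the dark, and the afternoon group was the 3 mice taken at 9 h, in the light. These 8 libraries were chosen by time from the 24 of the series, which covered 8 times (0, 1, 3, 5, 6, 9, 15 and 16 h) with 3 mice each. The third mouse of 15 h was left out because its library stood apart in how its counts depended on gene length. All animals were wild type, of strain 129S1/SvlmJ with the Leu450 form of Rpe65, and received standard diet and a light cycle whose light phase began at 7 am. The sources used here give no age or sex, nor whether tissue was pooled. The titles call the 3 libraries of a time biological replicates, so p-values measure the spread between such samples.

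The RPE is a pigmented layer behind the retina that recycles the visual chromophore, keeps the photoreceptors supplied from the choroid and digests the outer segment tips that rods shed each day. Like most tissues it carries a molecular clock, in which BMAL1 (Arntl) with CLOCK or NPAS2 drives the Per and Cry repressors and the nuclear receptors REV-ERB (Nr1d1, Nr1d2). REV-ERB represses and ROR activates Arntl through a shared element, and the output factor DBP opposes NFIL3 on the D-box.

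Libraries of the 8 mice held 14073440 to 17011018 counts, and 18388 genes were tested. RPE markers were high in all 8: the 15 fixed markers summed to 42857 to 48236 CPM (counts put on one library size by TMM) at 9 h and 43979 to 56808 at night, and Rpe65 itself lay between 4167 and 6378 CPM. RNA of other tissue was present as well, since markers of rods summed to 481 to 1109 CPM at 9 h and 445 to 1651 at night. The sums of 3 of the other marker lists did not overlap between the groups: inner retina markers summed to 5437 to 5629 CPM at 9 h and 5755 to 6255 at night, macrophage and mast cell markers summed to 2668 to 3122 CPM at 9 h and 2160 to 2531 at night, and endothelial markers to 944 to 1497 and 576 to 879. The Spearman correlation across genes of each library's deviation with gene length was -0.24 to -0.14 at 9 h, -0.13 and -0.09 at 15 h and 0.01 to 0.21 at 16 h. It was -0.51 in the left-out mouse of 15 h, where ribosomal protein genes took 6.02% of counts against 1.40% to 1.86% in the 8. In such bulk tissue, fewer cells of a type and less RNA per cell cannot be told apart.

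Early night and late afternoon differed in a minority of genes, with nearly as many higher as lower. With edgeR's quasi-likelihood test, 1357 of 18388 genes (7.38%) passed an adjusted p of 0.05, of which 667 (3.63%) were higher at night and 690 (3.75%) lower. The rises were smaller: their median log2 fold change was 0.33 (1.26-fold), against -0.58 (1.49-fold) for the falls, and 30 rises but 131 falls exceeded 2-fold. The 5 night libraries and the 3 of 9 h did not overlap for 2787 genes (15.2% of those tested), with night above for 7.47% and below for 7.69%. Among them were 593 of the 667 genes that rose and 582 of the 690 that fell. The mean at 9 h was the lowest of the 8 times for 478 of the 667 and the highest for 547 of the 690 (2967 and 3241 of all 18388 genes), a description only, since these genes were chosen for their difference from 9 h. The genes that rose were longer, with a median length of 5571 bases against 3927.5 for those that fell and 3761.5 for all genes tested, and the part of gene length in the calls was not tested beyond an added length offset, which gave 1452 calls, 1274 of them shared. The count depended on single libraries. It was 458 and 711 when mouse 1 or mouse 2 of 9 h was left out, and 698 and 761 when mouse 1 or mouse 2 of 15 h was, and 356 genes (209 higher, 147 lower) were called in all 8 fits that left out 1 library. The fit pooled the spread over 22 libraries of all times, without mouse 3 of 15 h and mouse 3 of 6 h. It gave 515 calls with that mouse of 6 h put back and 141 with both. With the median level of the macrophage and mast cell markers as a covariate 236 genes were called, and with that of the endothelial markers 130. In what follows a call is said to hold when it passed in each of the 8 fits without 1 library. Counts of called list members stand beside the 3.63% of all genes that rose and the 3.75% that fell. Over all genes the log2 fold change had a median of -0.01 and quartiles of -0.22 and 0.14.

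**Figure D1:**
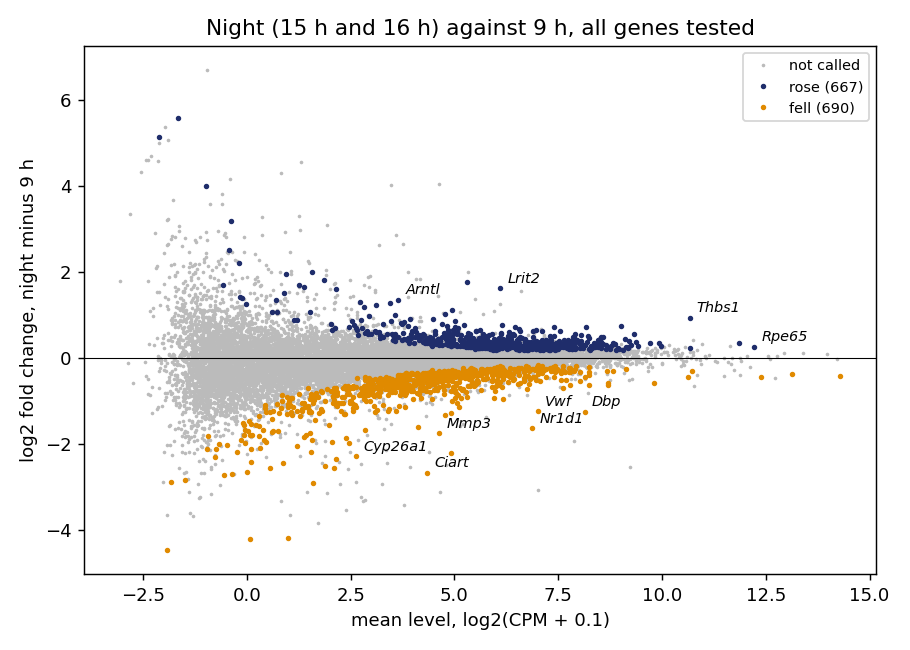
Log2 fold change of night over 9 h (vertical axis) against mean level as log2(CPM + 0.1) (horizontal axis) for the 18388 genes tested, 1 point a gene. The 667 genes that rose lie mostly close to the line of no change, while the 690 that fell reach further from it.

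The core clock moved in opposite directions: the gene of BMAL1, its partners and Rorb were higher at night, and most of the repressors were lower. Of 21 core clock genes 6 rose and 7 fell, 13 of 21 against a background of 7.38% over all genes, and 12 of the 21 did not overlap between groups, against 15.2%. Arntl, the gene of BMAL1 (ENSMUSG00000055116, mm10 chr7:113207465-113314126), had 5.55, 8.43 and 6.92 CPM in the 3 mice of 9 h, 16.04 and 15.9 in the 2 of 15 h and 17.7, 20.3 and 21.3 in the 3 of 16 h. Every night mouse lay above every mouse of 9 h, and the rise was 2.55-fold (log2 fold change 1.35, SE 0.13, adjusted p = 2.26e-06). Its 9 h mean was the lowest of the day, and other times ran from 9.90 to 28.9 CPM. Clock, the partner of BMAL1, was counted at 57.3, 62.5 and 66.1 CPM at 9 h, 75.3 and 79.8 at 15 h and 83.2, 84.6 and 97.2 at 16 h. That was a rise of 1.34-fold (log2 fold change 0.42, SE 0.08, adjusted p = 0.00252) with no overlap. Npas2, the other partner, stood at 3.25, 3.43 and 2.69 CPM at 9 h, 4.39 and 4.603 at 15 h and 5.06, 5.91 and 5.09 at 16 h. It rose by 1.57-fold (log2 fold change 0.65, SE 0.19, adjusted p = 0.0383), a call that ended without any one mouse of 9 h or of 15 h, or mouse 2 of 16 h (adjusted p = 0.0646 to 0.126).

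Among the receptors that activate Arntl, Rorb rose 1.25-fold (log2 fold change 0.32, SE 0.09, adjusted p = 0.0338) but lost its call without 5 of the libraries (mouse 1 or 2 of 9 h, mouse 2 of 15 h, mouse 2 or 3 of 16 h, adjusted p = 0.0534 to 0.183). Rora had a log2 fold change of 0.18 (SE 0.07, adjusted p = 0.117). The repressor Cry1 was counted at 24.4, 25.4 and 26.5 CPM at 9 h, 38.2 and 40.9 at 15 h and 35.1, 35.9 and 34.3 at 16 h. It rose 1.47-fold (log2 fold change 0.55, SE 0.09, adjusted p = 0.000639) to a level above the other 5 times, whose means lay between 19.4 and 20.9 CPM.

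Most of the other repressors fell. Ciart, the gene of the BMAL1 inhibitor CHRONO (ENSMUSG00000038550, mm10 chr3:95878503-95882251), stood at 46.95, 22.7 and 35.1 CPM at 9 h, 5.58 and 4.67 at 15 h and 6.41, 5.04 and 6.05 at 16 h. All 5 night mice were far below the lowest of 9 h, and the fall of 6.38-fold was the largest of the clock (log2 fold change -2.67, SE 0.27, adjusted p = 6.33e-05). Nr1d1, the gene of REV-ERB alpha (ENSMUSG00000020889, mm10 chr11:98767932-98775333), had 210, 135 and 185 CPM at 9 h, 51.3 and 54.6 at 15 h and 71.5, 55.5 and 57.6 at 16 h. The groups were far apart, and the fall was 3.10-fold (log2 fold change -1.63, SE 0.13, adjusted p = 3.74e-06). Its relative Nr1d2 was counted at 199, 180 and 208 CPM at 9 h, 142 and 139 at 15 h and 151, 136 and 157 at 16 h, a smaller fall of 1.36-fold (log2 fold change -0.44, SE 0.07, adjusted p = 0.000247).

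The 3 Period genes also fell, each by less than Ciart and Nr1d1. Per1, which light and glucocorticoids also induce, stood at 117, 108 and 175 CPM at 9 h, 76.6 and 61.7 at 15 h and 89.9, 102 and 93.4 at 16 h. The fall was 1.64-fold (log2 fold change -0.72, SE 0.14, adjusted p = 0.00612), and mouse 3 of 9 h carried the highest level. Per2 had 90.8, 87.03 and 104 CPM at 9 h, 66.3 and 63.1 at 15 h and 84.8, 67.7 and 65.8 at 16 h, a fall of 1.37-fold (log2 fold change -0.46, SE 0.09, adjusted p = 0.00425). Per3 was counted at 114, 119 and 123 CPM at 9 h, 94.1 and 85.3 at 15 h and 86.6, 84.1 and 75.1 at 16 h, a fall of 1.38-fold (log2 fold change -0.47, SE 0.08, adjusted p = 0.000768). For all 3 the mean at 9 h was the highest of the 8 times and every night mouse lay below every mouse of 9 h. Cry2 fell 1.23-fold (log2 fold change -0.30, SE 0.07, adjusted p = 0.00786), a call that ended without mouse 1 of 9 h (adjusted p = 0.111). The rest of the list did not pass. Their log2 fold changes ran from -0.33 (Fbxl21) to 0.18 (Rora), with Bhlhe40 at 0.12, Bhlhe41 at -0.06, Csnk1d at 0.02, Csnk1e at -0.08 and Timeless at -0.02. Of the 13 calls, 10 held, and 6 passed with the 2 left-out mice put back.

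**Figure D2:**
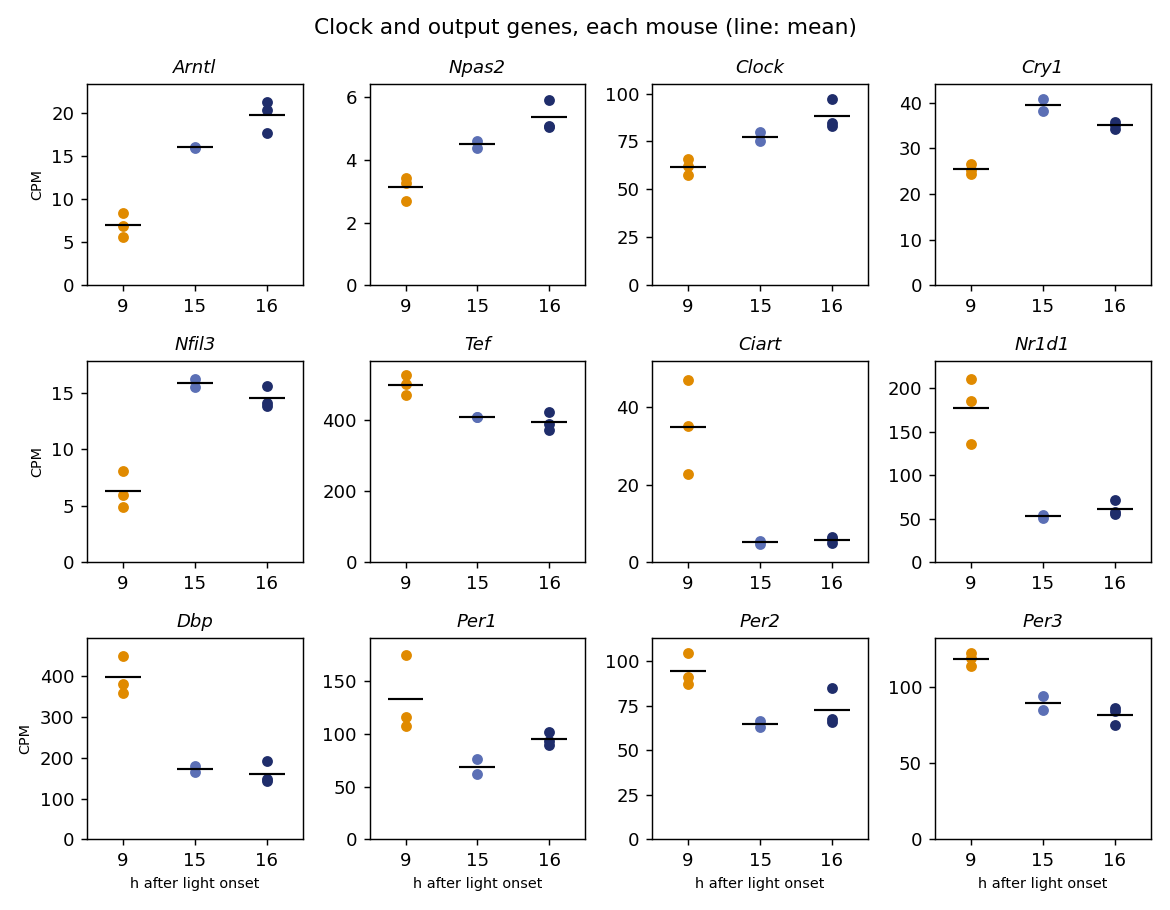
Levels in CPM (vertical axes, from 0) of 12 clock and output genes in each mouse of 9 h, 15 h and 16 h after light onset (horizontal axes), with the mean as a line. In all 12 panels the 5 night mice lie wholly above or wholly below the 3 mice of 9 h. Of the 12, Ciart and Nr1d1 have the largest fold changes.

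Of the 4 output factors, Dbp and Tef fell and Nfil3 rose. Dbp (ENSMUSG00000059824, mm10 chr7:45705088-45710203), a D-box activator, stood at 451, 359 and 381 CPM at 9 h, 166 and 180 at 15 h and 191, 148 and 143 at 16 h. It fell 2.38-fold (log2 fold change -1.25, SE 0.17, adjusted p = 0.000403), although 18% of its exonic bases are shared with Sphk2 on the opposite strand and the libraries carry no strand. Sphk2 itself rose (log2 fold change 0.63, SE 0.11, adjusted p = 0.000670). Nfil3, the D-box repressor (ENSMUSG00000056749, mm10 chr13:52967209-52981073), had 5.997, 8.07 and 4.89 CPM at 9 h, 15.5 and 16.3 at 15 h and 15.6, 13.8 and 14.1 at 16 h. It rose 2.40-fold (log2 fold change 1.26, SE 0.22, adjusted p = 0.00102), the opposite direction to Dbp. Tef was counted at 525, 468 and 501 CPM at 9 h, 408 and 409 at 15 h and 420, 388 and 370 at 16 h, a fall of 1.24-fold (log2 fold change -0.31, SE 0.06, adjusted p = 0.00150). Hlf had a log2 fold change of -0.07 (SE 0.07, adjusted p = 0.557).

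Promoters were searched for the letters of elements that these factors can bind. The 3 stretches printed were picked because they contain an E-box or a REV-ERB and ROR core. RefSeq windows of GRCm38.p6, from 250 bases before to 50 bases after the start, were found for 20 of the 25 clock and output genes (Bhlhe40, Csnk1d and Per2 were among the others) and searched on both strands. The E-box CACGTG, bound by BMAL1 with CLOCK, was in 3 of 8 windows of genes that fell (Ciart, Per1 and Tef), in 1 of 6 of those that rose (Cry1) and in 1 of 6 of those not called (Bhlhe41), against 7.15% of all 32851 windows. The core TAGGTCA of the REV-ERB and ROR element was in the window of Nfil3 alone, against 2.61% of all windows. The D-box TTATGTAA was in those of Per3 and Timeless, against 0.938%. Shown are stretches upstream of the RefSeq starts: of Ciart (chr3:95882252-95882478, minus strand), of Cry1 (chr10:85185065-85185304, minus strand) and of Nfil3 (chr13:52981040-52981063, minus strand), with the motif in capitals. Ciart, the gene with the largest fall, has 3 E-boxes that begin 116, 58 and 44 bases before its RefSeq start, which lies 23 bases inside the gene as the files place it; the stretch shown stops at the edge of that gene. That of Nfil3 lies within the gene as the files place it, whose start is 34 bases further upstream than in RefSeq. In Nfil3 the capitals are TAGGTCA as read on the other strand. A match describes these letters only.
Ciart: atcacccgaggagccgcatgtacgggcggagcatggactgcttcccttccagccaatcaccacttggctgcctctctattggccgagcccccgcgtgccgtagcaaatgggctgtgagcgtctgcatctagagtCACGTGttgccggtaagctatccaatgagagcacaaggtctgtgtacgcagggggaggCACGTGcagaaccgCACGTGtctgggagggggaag
Cry1: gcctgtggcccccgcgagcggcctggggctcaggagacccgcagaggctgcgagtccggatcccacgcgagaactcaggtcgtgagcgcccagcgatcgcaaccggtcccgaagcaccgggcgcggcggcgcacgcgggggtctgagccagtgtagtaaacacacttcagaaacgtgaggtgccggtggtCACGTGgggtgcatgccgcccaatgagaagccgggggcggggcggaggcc
Nfil3: ggcgctcggaacTGACCTActaac

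Outside the clock, the 12 largest rises among genes of at least 5 CPM included matrix, signalling and small GTPase genes. Thbs1 codes for thrombospondin 1, a matrix protein that restrains blood vessel growth (ENSMUSG00000040152, mm10 chr2:118111876-118127133). It stood at 1079, 1109 and 1161 CPM at 9 h, 2031 and 2141 at 15 h and 2185, 2002 and 2326 at 16 h. The night mice lay far above those of 9 h, a rise of 1.91-fold (log2 fold change 0.93, SE 0.08, adjusted p = 4.24e-07), and the day's course ran from 2780 CPM at 0 h to its lowest mean at 9 h. Fam184b (ENSMUSG00000015879, mm10 chr5:45529705-45639614) had 1.28, 1.57 and 1.67 CPM at 9 h, 3.82 and 4.203 at 15 h and 6.29, 6.89 and 7.97 at 16 h. It rose 3.52-fold (log2 fold change 1.81, SE 0.21, adjusted p = 1.47e-05), and 20.9% of its exonic bases are shared with 2 genes on the opposite strand. Lrit2, a leucine-rich membrane protein gene (ENSMUSG00000043418, mm10 chr14:37067929-37073743), was counted at 24.9, 43.7 and 30.6 CPM at 9 h, 81.03 and 77.1 at 15 h and 116, 123 and 151 at 16 h. The rise was 3.06-fold (log2 fold change 1.62, SE 0.19, adjusted p = 0.000163), and mice of 16 h were all above those of 15 h.

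Other rises that held were a pair of related small GTPases, a chondroitin sulfate synthase and a Wnt amplifier. Rasl11a stood at 5.74, 5.300 and 4.42 CPM at 9 h, 11.2 and 11.5 at 15 h and 11.5, 12.5 and 14.5 at 16 h, a rise of 2.34-fold (log2 fold change 1.23, SE 0.17, adjusted p = 0.000139). Rasl11b had 19.3, 17.4 and 17.01 CPM at 9 h, 42.4 and 39.03 at 15 h and 33.7, 30.6 and 32.1 at 16 h, a rise of 2.02-fold (log2 fold change 1.02, SE 0.14, adjusted p = 0.000127). Neither gene's groups overlapped. Chsy3, which builds chondroitin sulfate, was counted at 3.32, 2.53 and 5.43 CPM at 9 h, 9.53 and 11.3 at 15 h and 6.66, 7.99 and 10.2 at 16 h, a rise of 2.46-fold (log2 fold change 1.30, SE 0.20, adjusted p = 0.000290). Rspo2, which codes for R-spondin 2, an amplifier of Wnt signals, stood at 6.32, 9.34 and 7.997 CPM at 9 h, 17.7 and 14.8 at 15 h and 13.5, 14.4 and 17.9 at 16 h, a rise of 2.00-fold (log2 fold change 1.00, SE 0.16, adjusted p = 0.000434). Erich5 rose 2.17-fold (log2 fold change 1.12, SE 0.13, adjusted p = 1.29e-05) and Zbtb16, a transcription factor induced by glucocorticoids, 1.96-fold (log2 fold change 0.97, SE 0.21, adjusted p = 0.00532). The remaining 3 calls did not hold. Gsta3, a glutathione transferase, had 15.8, 22.2 and 13.9 CPM at 9 h, 113 and 51.7 at 15 h and 55.9, 29.2 and 39.3 at 16 h, Cnn1 (calponin of smooth muscle) 2.74, 0.964 and 2.03 CPM at 9 h, 9.84 and 10.9 at 15 h and 4.81, 2.61 and 2.29 at 16 h, and Adra2a (the alpha-2A adrenergic receptor) 4.98, 4.22 and 3.04 CPM at 9 h, 15.9 and 9.87 at 15 h and 7.96, 5.73 and 6.496 at 16 h. Mouse 1 of 15 h was highest for Gsta3 and Adra2a, and without it their adjusted p-values were 0.153 and 0.0913; that of Cnn1 was 0.0743. Each of the 3 calls also ended when any mouse of 9 h was left out, and so did that of Cnn1 for mouse 2 of 15 h, those of Gsta3 and Cnn1 for mouse 1 of 16 h and that of Gsta3 for mouse 3 of 16 h (adjusted p = 0.0667 to 0.174 for Gsta3, adjusted p = 0.0582 to 0.149 for Cnn1, adjusted p = 0.0512 to 0.0913 for Adra2a).

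**Figure D3:**
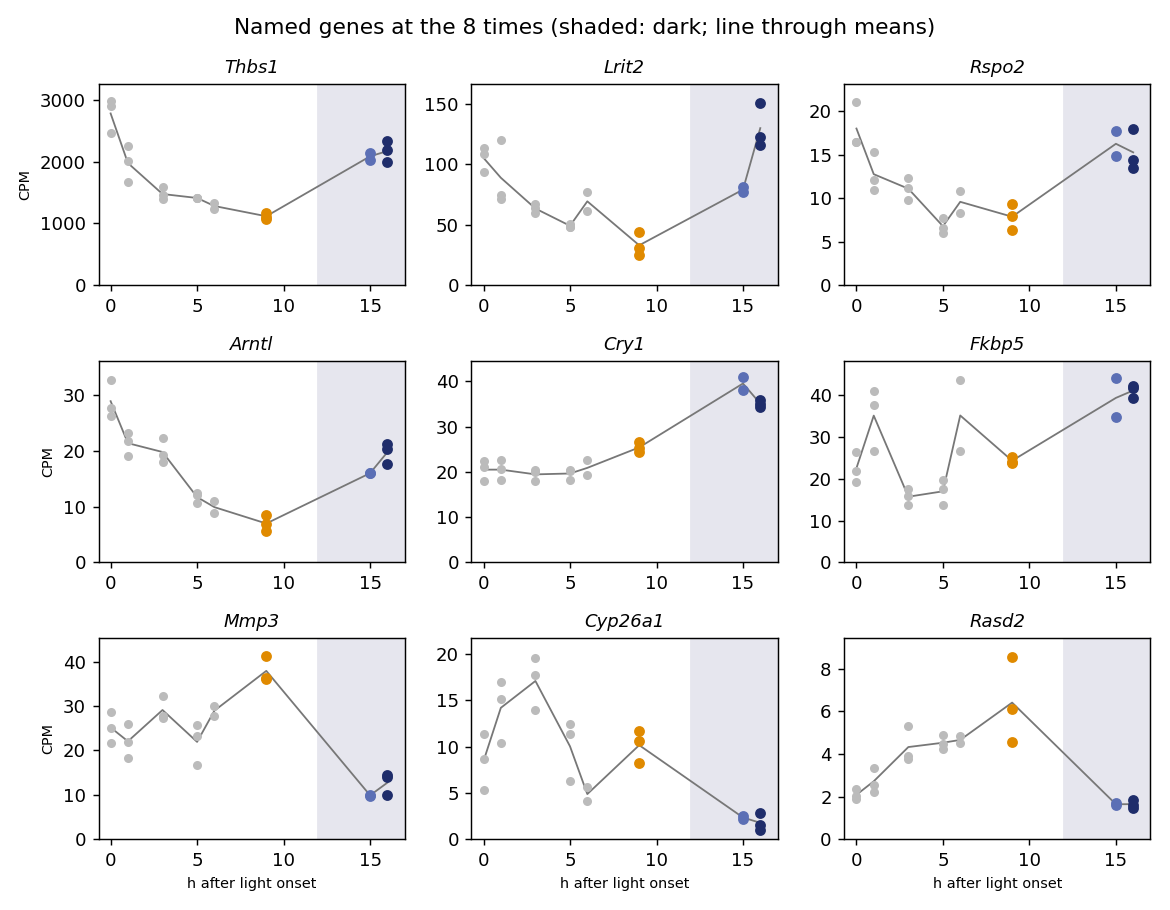
Levels in CPM (vertical axes, from 0) of 9 named genes at the 8 times in h after light onset (horizontal axes; dark phase shaded), 1 point a mouse and a line through the means; mouse 3 of 6 h and of 15 h are not drawn. Thbs1, Lrit2 and Arntl had their lowest mean at 9 h, and Rspo2 had a trough around 5 to 9 h. Cry1 was highest at 15 h and 16 h, and Mmp3, Cyp26a1 and Rasd2 were lowest there.

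The largest falls included a matrix protease, a retinoic acid hydroxylase and genes of white blood cells and of myelin. Mmp3, the gene of stromelysin 1 (ENSMUSG00000043613, mm10 chr9:7445822-7455975), had 36.1, 41.2 and 36.4 CPM at 9 h, 10.1 and 9.74 at 15 h and 9.93, 14.4 and 13.95 at 16 h. No night mouse came near a mouse of 9 h, and the fall of 3.37-fold had the smallest adjusted p of the named genes (log2 fold change -1.75, SE 0.14, adjusted p = 1.48e-07). Cyp26a1, which breaks down retinoic acid (ENSMUSG00000024987, mm10 chr19:37697808-37701528), was counted at 10.7, 8.19 and 11.6 CPM at 9 h, 2.19 and 2.54 at 15 h and 2.84, 1.51 and 1.03 at 16 h. It fell 4.90-fold (log2 fold change -2.29, SE 0.30, adjusted p = 0.000163), and its mean peaked at 3 h with 17.1 CPM. Rasd2, a small GTPase (ENSMUSG00000034472, mm10 chr8:75213944-75224113), stood at 8.55, 4.58 and 6.09 CPM at 9 h, 1.69 and 1.601 at 15 h and 1.48, 1.85 and 1.62 at 16 h, a fall of 3.86-fold (log2 fold change -1.95, SE 0.21, adjusted p = 8.39e-06).

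Lingo1, a membrane protein of nerve cells, had 8.17, 4.82 and 8.65 CPM at 9 h, 1.504 and 1.33 at 15 h and 1.48, 2.08 and 0.591 at 16 h, a fall of 5.08-fold (log2 fold change -2.34, SE 0.41, adjusted p = 0.00150). Gdf3, a ligand of the TGF-beta family, was counted at 6.38, 12.8 and 5.07 CPM at 9 h, 1.32 and 3.202 at 15 h and 1.42, 2.66 and 2.58 at 16 h, a fall of 3.61-fold (log2 fold change -1.85, SE 0.30, adjusted p = 0.000549). Serpina3g, a protease inhibitor, stood at 9.38, 9.88 and 6.44 CPM at 9 h, 3.63 and 2.07 at 15 h and 1.73, 1.68 and 1.55 at 16 h, a fall of 3.93-fold (log2 fold change -1.97, SE 0.38, adjusted p = 0.00295). All 3 held, with no overlap between groups. A further 3 falls were in genes of white blood cells. Adgre4, an adhesion receptor of myeloid cells, had 6.76, 7.23 and 3.998 CPM at 9 h, 0.564 and 0.801 at 15 h and 1.67, 1.04 and 2.07 at 16 h, a fall of 5.75-fold (log2 fold change -2.52, SE 0.35, adjusted p = 0.000127). Itgal, the integrin alpha-L chain of leukocytes, was counted at 23.7, 36.02 and 17.7 CPM at 9 h, 10.2 and 9.07 at 15 h and 9.19, 6.95 and 6.496 at 16 h, a fall of 3.02-fold (log2 fold change -1.60, SE 0.28, adjusted p = 0.00287). Spn, the gene of leukocyte CD43, stood at 9.44, 15.1 and 7.64 CPM at 9 h, 3.13 and 4.803 at 15 h and 2.898, 2.55 and 2.95 at 16 h, a fall of 3.21-fold (log2 fold change -1.68, SE 0.29, adjusted p = 0.00171).

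The last 3 of the 12 followed the myelin genes in 2 mice of 9 h. Cldn11, the claudin of myelin, had 77.4, 54.7 and 17.5 CPM at 9 h, 12.97 and 8.74 at 15 h and 15.2, 8.86 and 7.31 at 16 h. S1pr5, a sphingosine phosphate receptor of oligodendrocytes, was counted at 9.63, 10.4 and 1.49 CPM at 9 h, 1.63 and 1.07 at 15 h and 1.97, 1.04 and 0.148 at 16 h. Elavl3, a neuronal RNA-binding protein gene, stood at 7.59, 7.05 and 0.776 CPM at 9 h, 1.07 and 0.200 at 15 h and 0.740, 0.984 and 0.369 at 16 h. In each, mice 1 and 2 of 9 h were high and mouse 3 was close to the night mice. Mbp, the myelin basic protein gene, had the same order with 1446, 1500 and 115 CPM at 9 h and 278, 126, 267, 131 and 58.9 at night, and was not called (adjusted p = 0.155). The call of Cldn11 (adjusted p = 0.0474) ended on leaving out any of the 8 libraries except mouse 3 of 9 h (adjusted p = 0.0567 to 0.230), that of S1pr5 (0.0266) ended without mouse 1 or 2 of 9 h or of 15 h (adjusted p = 0.0868 to 0.125), and that of Elavl3 (0.0209) without mouse 1 or 2 of 9 h or mouse 2 of 15 h (adjusted p = 0.0783 to 0.110).

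Of 30 visual cycle and RPE identity genes 5 rose and 2 fell, 7 of 30 against 7.38% of all genes, with a median log2 fold change of 0.10 against -0.01 over all genes. Cdh3, the cadherin that joins RPE cells, had 194, 252 and 204 CPM at 9 h, 318 and 374 at 15 h and 372, 352 and 389 at 16 h. It rose 1.65-fold (log2 fold change 0.72, SE 0.11, adjusted p = 0.000670), and its call held, as did that of Rdh11, a retinol dehydrogenase (log2 fold change 0.37, SE 0.08, adjusted p = 0.00739). Rpe65, the isomerase of the visual cycle, was counted at 4275, 4167 and 4590 CPM at 9 h, 4619 and 4669 at 15 h and 5733, 5291 and 6378 at 16 h. The 2 mice of 15 h lay barely above those of 9 h and the 3 of 16 h well above (log2 fold change 0.26, SE 0.07, adjusted p = 0.0358); the call ended without mouse 1 or 2 of 9 h, mouse 1 or 2 of 15 h or mouse 3 of 16 h (adjusted p = 0.0652 to 0.134). Lrat, Rlbp1, Rdh5, Stra6 and Ttr had log2 fold changes of -0.02, 0.01, -0.11, 0.00 and 0.08, none of them called. Kcnj13, the potassium channel of the apical membrane, fell 1.42-fold (log2 fold change -0.51, SE 0.12, adjusted p = 0.0193), but 49.1% of its exonic bases are shared with Gigyf2, and the call ended without mouse 2 or 3 of 9 h or mouse 1 of 15 h (adjusted p = 0.0699 to 0.0928).

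Of 20 melanin and pigment granule genes 4 rose, against 3.63% of all genes, and none fell. Their median log2 fold change was 0.18 against -0.01 over all genes, with 16 of 20 positive. Rab27a, which tethers pigment granules to the cell's actin, stood at 325, 297 and 346 CPM at 9 h, 390 and 412 at 15 h and 431, 404 and 444 at 16 h. It rose 1.28-fold (log2 fold change 0.36, SE 0.06, adjusted p = 0.000537), and it was the only one of the 4 whose call held. Tyr, the tyrosinase gene, had 361, 394 and 431 CPM at 9 h, 486 and 482 at 15 h and 501, 472 and 590 at 16 h. It rose 1.27-fold (log2 fold change 0.35, SE 0.07, adjusted p = 0.00551), and without mouse 1 of 9 h its adjusted p was 0.0589. Of 25 outer segment uptake genes 1 rose and 2 fell (median 0.02), none of which held. Mfge8, the bridge between outer segments and the integrin receptor, was counted at 163, 142 and 136 CPM at 9 h, 102 and 112 at 15 h and 107, 114 and 77.2 at 16 h. It fell 1.43-fold (log2 fold change -0.51, SE 0.10, adjusted p = 0.00481), with an adjusted p of 0.0564 without mouse 1 of 9 h. Mertk, the receptor kinase that drives ingestion, stood at 203, 213 and 222 CPM at 9 h, 181 and 192 at 15 h and 226, 204 and 211 at 16 h, a log2 fold change of -0.09 (SE 0.07, adjusted p = 0.477).

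The study's subject was optineurin and the lysosome. Optn, an autophagy receptor (ENSMUSG00000026672, mm10 chr2:5020642-5064051), had 96.4, 93.2 and 107 CPM at 9 h, 109 and 103 at 15 h and 112, 105 and 117 at 16 h. The groups overlapped, and the log2 fold change was 0.14 (SE 0.06, adjusted p = 0.208). None of the 44 autophagy machinery genes was called in edgeR's test, against 7.38% of all genes, and 5 had an unadjusted p under 0.05; DESeq2 called 1 of them and limma-voom 0. Their median log2 fold change was 0.03. Map1lc3b, the LC3 gene, was at -0.02 (adjusted p = 0.898) and Sqstm1, the p62 receptor, at 0.05 (adjusted p = 0.652). Of 19 selective autophagy receptors 2 rose, Nbr1 (1.18-fold, log2 fold change 0.24, SE 0.06, adjusted p = 0.00894) and Sec62 (1.19-fold, log2 fold change 0.25, SE 0.07, adjusted p = 0.0429), and neither held. The call of Nbr1 ended without mouse 1 or 2 of 9 h (adjusted p = 0.0578 to 0.0662), and that of Sec62 in 6 of the 8 fits, those without mouse 1 or 2 of 9 h, mouse 1 or 2 of 15 h, or mouse 1 or 3 of 16 h (adjusted p = 0.0551 to 0.217).

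Lysosomal hydrolases had the most calls of the autophagy and lysosome lists, and all were falls. Of 52 members 10 fell and none rose, 10 of 52 against 3.75% of all genes in that direction, while their median log2 fold change was -0.06 against -0.01. Acp5, the tartrate-resistant acid phosphatase gene (ENSMUSG00000001348, mm10 chr9:22126727-22135711), was counted at 24.8, 27.3 and 20.9 CPM at 9 h, 15.4 and 15.3 at 15 h and 15.8, 13.4 and 13.1 at 16 h. It fell 1.65-fold (log2 fold change -0.73, SE 0.12, adjusted p = 0.000598). Ctss, the gene of cathepsin S, stood at 321, 320 and 289 CPM at 9 h, 193 and 228 at 15 h and 198, 254 and 203 at 16 h. It fell 1.45-fold (log2 fold change -0.53, SE 0.11, adjusted p = 0.00526). Ctsh, the gene of cathepsin H, had 58.3, 51.9 and 53.5 CPM at 9 h, 37.2 and 41.96 at 15 h and 33.3, 39.95 and 35.6 at 16 h, a fall of 1.44-fold (log2 fold change -0.52, SE 0.10, adjusted p = 0.00178). The calls of these 3 held. The other 7 calls were Pla2g15, Ctsz, Man2b1, Lipa, Hexa, Naglu and Ctsa, with falls of 0.21 to 0.38 on the log2 scale, and none of them held. Ctsd, the gene of cathepsin D, was counted at 3533, 3231 and 3332 CPM at 9 h, 2974 and 3207 at 15 h and 3135, 2945 and 3078 at 16 h. Its groups did not overlap, but the log2 fold change of -0.13 (SE 0.07, adjusted p = 0.271) did not pass, it turned to 0.46 (adjusted p = 0.579) with the 2 left-out mice put back, and 34.4% of its exonic bases are shared with another gene.

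The falls in hydrolases went beside the lower macrophage marker sums given above, and Lyz2 and Cd68, both abundant in macrophages, fell by 0.46 and 0.48 on the log2 scale. With the macrophage and the endothelial covariate, which left 1.28% and 0.707% of all genes called, no hydrolase was called, and the log2 fold changes were -0.64 and -0.59 for Acp5, -0.32 and -0.31 for Ctss and -0.35 and -0.36 for Ctsh. The part of macrophages in these falls was not tested. Of 17 V-ATPase subunits, which acidify the lysosome, only Tcirg1 was called, the a3 subunit that is abundant in osteoclasts (ENSMUSG00000001750, mm10 chr19:3896050-3907133). It stood at 120, 113 and 101 CPM at 9 h, 69.7 and 78.3 at 15 h and 66.05, 77.1 and 71.2 at 16 h, a fall of 1.53-fold (log2 fold change -0.61, SE 0.08, adjusted p = 0.000127), and it passed with either covariate (adjusted p = 0.0423 and 0.0425). Of 28 lysosomal membrane proteins 2 fell (median -0.04) and neither held: Tpcn2, a lysosomal cation channel, ended without mouse 1 of 9 h or mouse 1 of 15 h (adjusted p = 0.0571 to 0.0960) and Tmem192 without mouse 2 of 9 h, either mouse of 15 h or mouse 1 of 16 h (adjusted p = 0.0578 to 0.195). Of 33 MiT/TFE and mTORC1 genes 3 rose and 1 fell (median 0.02). Rragd, a Rag GTPase of the mTORC1 pathway, had 210, 203 and 208 CPM at 9 h, 245 and 238 at 15 h and 273, 263 and 292 at 16 h, a rise of 1.25-fold (log2 fold change 0.32, SE 0.06, adjusted p = 0.00172), and Castor1, the arginine sensor, at 22.8, 20.5 and 23.1 CPM at 9 h, 15.2 and 15.6 at 15 h and 15.7, 15.5 and 14.8 at 16 h, a fall of 1.44-fold (log2 fold change -0.52, SE 0.10, adjusted p = 0.00177). Both held. Tfeb, Tfe3 and Mitf, transcription factors of lysosomal and pigment cell genes, were at -0.13, 0.01 and 0.20 (adjusted p = 0.544, 0.969 and 0.233).

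**Figure D4:**
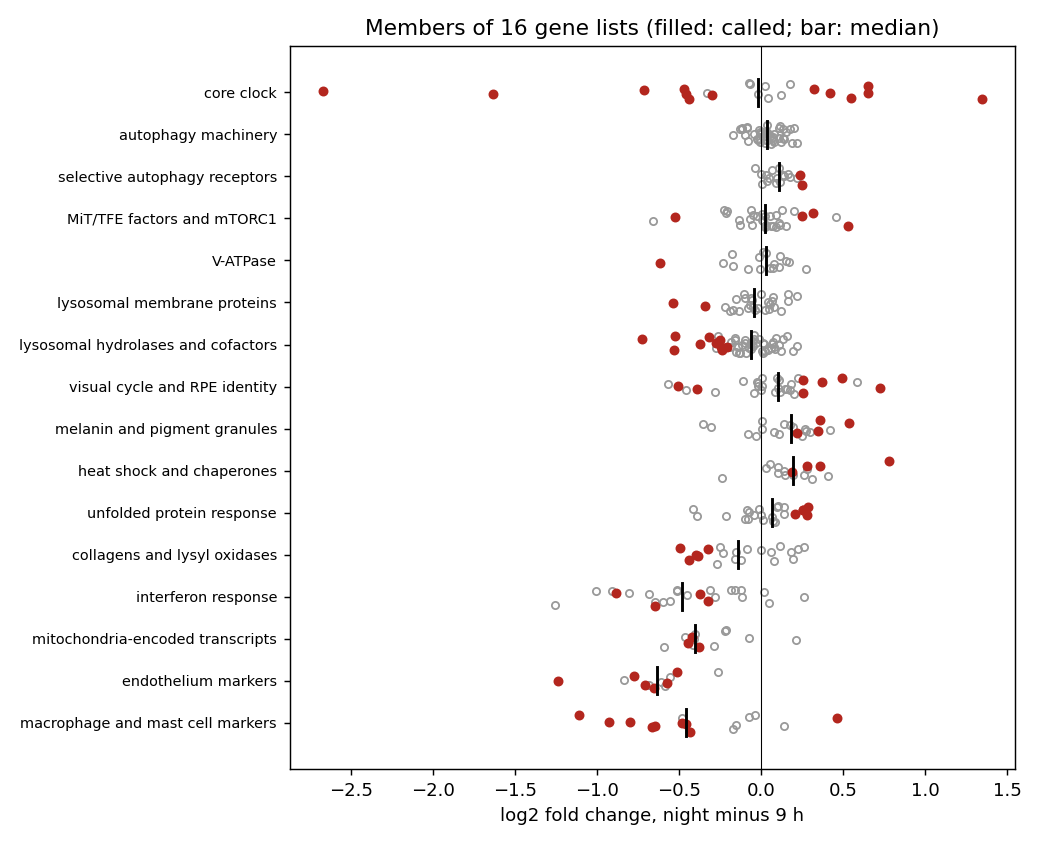
Log2 fold change of night over 9 h (horizontal axis) for every tested member of 16 gene lists (vertical axis), filled where the adjusted p was under 0.05, with the list's median as a bar. The core clock spreads from -2.67 to 1.35, autophagy machinery stays near 0 with no call, and the endothelial, macrophage, interferon and mitochondria-encoded lists have medians from -0.63 to -0.40.

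Secreted signals moved in both directions. Of 21 BMP and TGF-beta genes 4 rose and 4 fell (median -0.09). Gdf10, a ligand of the family (ENSMUSG00000021943, mm10 chr14:33923587-33937983), was counted at 49.00, 38.3 and 41.1 CPM at 9 h, 18.05 and 17.5 at 15 h and 23.1, 19.3 and 10.1 at 16 h. It fell 2.42-fold (log2 fold change -1.27, SE 0.22, adjusted p = 0.00283). Bmp2 and Gdf11, further ligands, rose by 0.39 (SE 0.07, adjusted p = 0.000768) and 0.36 (SE 0.07, adjusted p = 0.00308) on the log2 scale, and these 3 calls held. Bmp4, a ligand made by the RPE, stood at 287, 375 and 365 CPM at 9 h, 235 and 223 at 15 h and 314, 274 and 303 at 16 h. The lower values were those of 15 h, and the fall of 1.31-fold (log2 fold change -0.39, SE 0.08, adjusted p = 0.00566) had an adjusted p of 0.0581 without mouse 2 of 9 h.

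The 15 retinoic acid genes had 2 falls and no rise (median -0.15): Cyp26a1, described above, and its relative Cyp26c1 (log2 fold change -1.59, SE 0.42, adjusted p = 0.0215), which ended without mouse 1 or 3 of 9 h or mouse 1 of 15 h (adjusted p = 0.0644 to 0.105). Of 17 FGF-responsive genes 1 rose and 2 fell (median -0.10). Etv5, an ETS factor downstream of FGF, had 114, 116 and 128 CPM at 9 h, 81.97 and 79.5 at 15 h and 107, 93.6 and 93.7 at 16 h, a fall of 1.34-fold that held (log2 fold change -0.42, SE 0.06, adjusted p = 0.000249). Of 28 Wnt genes 3 rose, against 3.63% of all genes, and none fell (median 0.20), and Rspo2 alone held. Among 25 cyclases and phosphodiesterases of cyclic AMP 2 rose and 2 fell (median 0.02). Adcy7, an adenylyl cyclase, was counted at 68.3, 56.9 and 62.2 CPM at 9 h, 39.2 and 39.4 at 15 h and 31.5, 38.4 and 36.5 at 16 h, and its fall of 1.67-fold passed in all 22 alternative settings (log2 fold change -0.74, SE 0.10, adjusted p = 7.91e-05). Of 11 STAT feedback genes 2 rose (median 0.02), neither of which held.

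Among the stress lists, the calls of heat shock and unfolded protein response genes were all rises. Of 16 heat shock genes 4 rose, against 3.63% of all genes, and none fell (median 0.19 against -0.01, 15 of 16 positive). Stip1, a co-chaperone of HSP70 and HSP90, stood at 117, 117 and 128 CPM at 9 h, 155 and 145 at 15 h and 155, 161 and 165 at 16 h. It rose 1.28-fold (log2 fold change 0.36, SE 0.07, adjusted p = 0.00231), and it was the call that held. Hspa1b, an inducible HSP70 gene with a near-identical copy in Hspa1a, had 10.8, 10.1 and 8.18 CPM at 9 h, 22.6 and 16.5 at 15 h and 13.5, 15.5 and 13.4 at 16 h, the largest rise of the 4 at 1.72-fold (log2 fold change 0.78, SE 0.19, adjusted p = 0.0120), and its call ended without mouse 3 of 9 h or mouse 1 of 15 h (adjusted p = 0.0552 to 0.0654). Cirbp, the cold-inducible RNA-binding protein gene, moved the other way, with 194, 159 and 156 CPM at 9 h, 135 and 121 at 15 h and 127, 118 and 121 at 16 h. It fell 1.36-fold (log2 fold change -0.44, SE 0.08, adjusted p = 0.00235), while Rbm3, the second of the 2 cold-inducible genes, was not called. Of 23 unfolded protein response genes 5 rose, against 3.63% of all genes, and none fell (median 0.06), but none held. Of 14 glucocorticoid genes 3 rose and 1 fell (median 0.07): Zbtb16 and Per1, described above, held, while Fkbp5 (23.9, 24.03 and 25.1 CPM at 9 h, 44.1 and 34.8 at 15 h and 41.7, 39.5 and 42.3 at 16 h) lost its call without mouse 1 of 9 h (adjusted p = 0.0621), as did Ddit4 (adjusted p = 0.0760). Immediate early genes summed to 476 to 526 CPM at 9 h, 714 and 482 at 15 h and 279 to 321 at 16 h. Alone against 9 h, 15 h had 0 falls among them and 16 h had 7, while 1.57% and 10.7% of all genes were called. With the 2 night times joined, 1 of 20 fell, against 3.75% of all genes, and 18 of 20 had negative values (median -0.35 against -0.01). That one was Nr4a1, an orphan receptor gene, with 50.8, 47.6 and 41.7 CPM at 9 h, 28.3 and 25.95 at 15 h and 18.1, 16.3 and 15.4 at 16 h, and its call (log2 fold change -1.14, SE 0.28, adjusted p = 0.0256) ended without mouse 1 or 2 of 9 h, mouse 1 or 2 of 15 h or mouse 3 of 16 h (adjusted p = 0.0530 to 0.115). Of 21 NRF2 genes 2 rose and 1 fell (median 0.03) and of 21 hypoxia genes 1 rose and 1 fell (median 0.01), none of which held.

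Of the metabolic lists, that of glucose and insulin responsive genes had most calls, with 5 of 24 rising and 2 falling (median 0.05). Over all genes 3.63% rose and 3.75% fell. Foxo3, a transcription factor that insulin restrains, had 66.6, 70.8 and 68.8 CPM at 9 h, 88.4 and 91.5 at 15 h and 93.6, 95.7 and 92.5 at 16 h. It rose 1.34-fold (log2 fold change 0.42, SE 0.06, adjusted p = 0.000176). Acaca, which makes malonyl-CoA, was counted at 51.4, 52.3 and 59.6 CPM at 9 h, 67.7 and 67.6 at 15 h and 67.7, 73.1 and 79.1 at 16 h, a rise of 1.29-fold (log2 fold change 0.37, SE 0.07, adjusted p = 0.00273), and Fasn, the fatty acid synthase gene, at 180, 172 and 172 CPM at 9 h, 231 and 237 at 15 h and 211, 208 and 206 at 16 h, a rise of 1.26-fold (log2 fold change 0.34, SE 0.07, adjusted p = 0.00619). All 3 held. In the list of 28 fatty acid oxidation genes 2 rose and 1 fell (median 0.03). Cpt1a, the entry enzyme of mitochondrial oxidation, rose 1.28-fold (log2 fold change 0.36, SE 0.07, adjusted p = 0.00278), and Plin2, a lipid droplet coat, fell 1.26-fold (log2 fold change -0.34, SE 0.07, adjusted p = 0.00552), and both held. None of 23 cholesterol genes was called in edgeR's test or by DESeq2 or limma-voom (3 with an unadjusted p under 0.05, median 0.02). Of 13 mitochondria-encoded transcripts 3 fell (median -0.40, 12 of 13 negative), and their sum was 50642 to 63186 CPM at 9 h and 37082 to 48120 at night. The 3 calls, of mt-Co1, mt-Nd1 and mt-Cytb, all ended without mouse 1 or 2 of 9 h or mouse 1 of 15 h, the last 2 also without mouse 2 of 15 h, mt-Cytb without mouse 2 of 16 h, and all 3 with the gene length offset (adjusted p = 0.0567 to 0.171 over the 3).

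Vessel and immune genes were lower at night as lists. All 12 endothelial markers had negative values and 6 fell (median -0.63, against -0.01 over all genes). Vwf, the von Willebrand factor gene, stood at 224, 207 and 110 CPM at 9 h, 89.9 and 80.4 at 15 h and 48.8, 88.2 and 68.2 at 16 h. It fell 2.36-fold (log2 fold change -1.24, SE 0.31, adjusted p = 0.0291), and Plvap, the diaphragm protein of fenestrated capillaries, fell 1.63-fold from 300, 223 and 205 CPM at 9 h, 151 and 170 at 15 h and 122, 147 and 143 at 16 h (log2 fold change -0.71, SE 0.19, adjusted p = 0.0324). Mouse 1 of 9 h was highest in both, and none of the 6 calls held: those of Vwf and Plvap ended without mouse 1 or 2 of 9 h, mouse 1 or 2 of 15 h or mouse 1 or 3 of 16 h (adjusted p = 0.0539 to 0.157 and adjusted p = 0.0546 to 0.205). Of 15 macrophage and mast cell markers 8 fell and 1, Kit, rose (median -0.46). Cx3cr1, the fractalkine receptor gene, had 16.3, 23.3 and 11.04 CPM at 9 h, 10.9 and 10.9 at 15 h and 6.11, 5.33 and 5.39 at 16 h. It fell 2.16-fold (log2 fold change -1.11, SE 0.15, adjusted p = 0.000127). Cma1, a chymase of mast cells, was counted at 27.2, 19.6 and 24.3 CPM at 9 h, 11.7 and 10.1 at 15 h and 13.3, 15.4 and 13.9 at 16 h, a fall of 1.90-fold (log2 fold change -0.93, SE 0.13, adjusted p = 0.000127). Ptprc, the CD45 gene, stood at 44.3, 57.3 and 45.5 CPM at 9 h, 32.7 and 30.8 at 15 h and 23.6, 28.5 and 22.7 at 16 h, a fall of 1.74-fold (log2 fold change -0.80, SE 0.16, adjusted p = 0.00429). These 3, with Lyz2, Cd68 and Kit, held. Csf1r and Adgre1, which define macrophages, were at -0.04 and -0.17 (adjusted p = 0.802 and 0.477). What part cell numbers had in these falls was not tested.

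**Figure D5:**
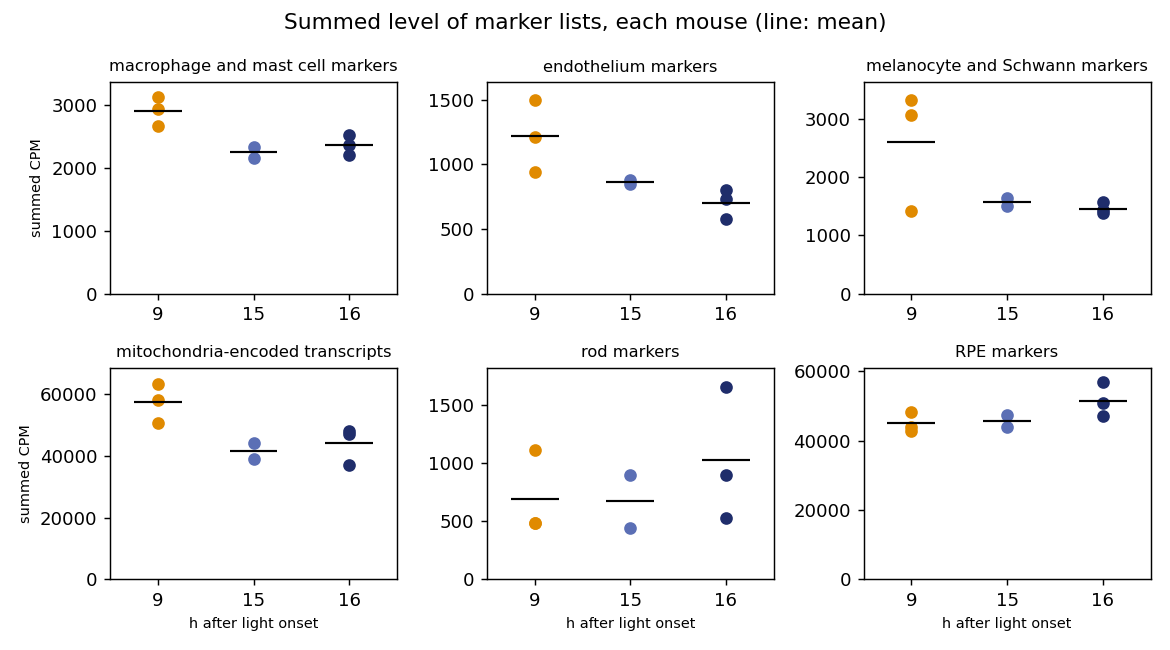
Summed CPM (vertical axes, from 0) of 5 marker lists and of the mitochondria-encoded transcripts in each mouse of 9 h, 15 h and 16 h (horizontal axes), with the mean as a line. Macrophage, endothelial and mitochondria-encoded sums are lower in all 5 night mice than in all 3 of 9 h, the melanocyte and Schwann sum is high in 2 mice of 9 h, and rod and RPE sums overlap.

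Of 24 interferon response genes 4 fell, against 3.75% of all genes (median -0.48 against -0.01, 21 of 24 negative). Psmb9, an immunoproteasome subunit gene, had 11.7, 11.9 and 8.59 CPM at 9 h, 5.77 and 6.27 at 15 h and 6.11, 5.62 and 5.02 at 16 h. It fell 1.85-fold (log2 fold change -0.89, SE 0.19, adjusted p = 0.00587), and it alone held. Of 20 complement genes 1, C3, fell, without holding (median -0.15). Of 20 collagen and lysyl oxidase genes 5 fell, against 3.75% of all genes, and none held (median -0.14). Col3a1, a collagen of connective tissue, was counted at 150, 130 and 130 CPM at 9 h, 112 and 119 at 15 h and 74.00, 104 and 86.6 at 16 h, with an adjusted p of 0.00496, and 0.0648 without mouse 1 of 9 h. Markers of other tissues gave few calls in edgeR's test. There was none of 14 for rods (median 0.35), 10 for cones (0.16), 6 for red blood cells (-0.50), 10 for skeletal muscle (0.43) and 9 for lens and ciliary body (1.55), by edgeR, DESeq2 or limma-voom, with an unadjusted p under 0.05 for 1 cone and 1 lens marker. Of 15 inner retina markers 3 rose (0.38), of 12 fibroblast and mural markers 1 rose and 1 fell (0.02), of 10 melanocyte and Schwann markers 1 rose (-0.05), and of 15 RPE markers 3 rose (0.10). Among the 10 melanocyte and Schwann markers 7 had an unadjusted p under 0.05 in edgeR's test. DESeq2, which called 9.89% of all genes, called 2 rises and 4 falls there. Their sum was 3321, 3067 and 1418 CPM at 9 h and 1379 to 1634 at night.

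Few or no genes separated the 2 night times, depending on the test. Between 16 h and 15 h, 0 of 18388 genes passed in edgeR's test, 2148 (11.7%) had an unadjusted p under 0.05, and DESeq2 called 111 and limma-voom 0. With 2 mice at 15 h this does not show that the times were equal. Taken alone, 15 h against 9 h gave 289 calls and 16 h against 9 h 1973. Both contrasts share the 3 mice of 9 h, and their values for clock genes are set side by side: the log2 fold change of Arntl was 1.2 at 15 h and 1.5 at 16 h, that of Ciart -2.77 and -2.58, that of Nr1d1 -1.74 and -1.52, that of Per1 -0.94 and -0.49 (the latter not called, adjusted p = 0.0634) and that of Dbp -1.2 and -1.3.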

How the data were processed

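Total RNA of mouse RPE was sequenced, and per the labels' protocols the library kit was one without strand marking, so reads of overlapping genes on both strands cannot be told apart. The authors deposited whole-number read counts per gene, with each gene's name, mm10 position and length. STAR, HTSeq and mm10 are named per the submitters' processing notes, and the sources used here give neither their roles and versions nor the annotation. The counts were used as deposited. Columns were matched to times by clock hour (light onset at 7 am) and mouse number. A chi-square comparison found no pair of the 8 libraries closer than sampling noise (28 pairs, with 6.13 per degree of freedom as the lowest).

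The filter was filterByExpr at a minimum count of 10, and it left 18388 of 54532 genes and 99.9% of counts. edgeR 4.0.16 in R 4.3.3 fitted 1 mean per time with TMM scaling and robust quasi-likelihood dispersions to 22 libraries. The contrast was the mean of 15 h and 16 h minus 9 h, with Benjamini-Hochberg adjustment over all genes tested and a call at an adjusted p under 0.05. All adjusted p-values are edgeR's unless another tool is named. CPM values carry the TMM scaling. DESeq2 1.42.0 and limma 3.58.1 (voom) were alternatives. On simulated counts of 18014 genes the test called 38 of 67 genes changed 1.5-fold, 55 of 67 changed 2-fold and 65 of 66 changed 4-fold, with 6 false calls. Apart from the set changes, these counts were drawn independently around 1 mean per gene. They carried no differences in gene length dependence or tissue mix between libraries, so they do not measure false calls that such differences could bring.

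The members and the 42 gene lists (788 symbols, 773 tested) were chosen with earlier results of these data known. Named genes (a few of which are not reported here) were all clock and output genes, 10 genes of the study's subject, the 12 largest rises and falls (at least 5 CPM, no predicted genes) and up to 4 called members of each list. Overlap of exons was read from GENCODE vM21 for these 149 genes, of which 11 share over 10% of their exonic bases. Promoters came from RefSeq GRCm38.p6. The sequence positions count from 1.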

Additional observations from a re-analysis of the deposited data

Results flagged for a closer look

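Among the 5 night libraries of each of the 149 named genes, 10 genes had 1 mouse whose distance from its nearest neighbour was over 0.71 of the whole range. Chance flags about 5% of groups. Mouse 3 of 16 h stood apart in 7 of the 10. It had the highest night level of Tyr with 590.0 CPM (the other 4 night mice had 471.9 to 501.5), of Oca2 with 371.7 CPM (318.1 to 331.2) and of Hif1a with 270.6 CPM (219.2 to 232.8). Dnajc3, a chaperone gene of the endoplasmic reticulum, reached 263.4 CPM in it (214.3 to 227.5) and Atf6, a sensor of unfolded protein, 71.5 CPM (57.0 to 58.9). It had the lowest level of Mfge8 with 77.2 CPM (102.2 to 113.7) and of Srxn1 with 34.8 CPM (38.2 to 39.6). Mouse 1 of 16 h was highest for Per2 with 84.8 CPM (63.1 to 67.7) and lowest for Lox with 9.00 CPM (15.4 to 16.3). Mouse 1 of 15 h was highest for Pde3b with 12.5 CPM (5.54 to 6.35).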

How the results depend on the processing

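The count of 1357 calls (667 higher, 690 lower, 49.2% higher) depended on which libraries entered. It was 515 (223, 292) with mouse 3 of 6 h in the fit and 141 (55, 86, 39.0% higher) with mouse 3 of 15 h too. Leaving out each of the 8 libraries in turn gave 458 to 1341 calls, of which 248 to 671 were higher and 210 to 671 lower. For 15 h alone the count was 289 (162, 127), and for 16 h alone 1973 with 1009 higher. With no filter on low counts it was 2089, of which 1101 lower. RLE scaling gave 1390, DESeq2 1819, limma-voom 1314 and the 8 libraries with a mean per time 1312, while the same 8 with night as 1 group gave 883 (421, 462).

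Added after seeing the data, the length offset gave 1452 calls, the macrophage and mast cell covariate 236 (154, 82, 65.3% higher) and the endothelial one 130 (86, 44, 66.2% higher); these marker levels move with the groups, so the covariate and the contrast cannot be fully told apart.

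Between 16 h and 15 h the count of 0 became 2 with RLE scaling, 724 without the filter, 111 with DESeq2, 3 on 8 libraries, 2 with the length offset and 0 to 3 on leaving out 1 library. The cause was not tested.

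Same-numbered deviations of 9 h and 16 h correlated at 0.13 to 0.39, but those of 9 h and 15 h at 0.10 and -0.24 and of 15 h and 16 h at 0.13 and -0.22, so the numbers were not taken as pairs. With the replicate block 1316 genes were called (656 higher, 660 lower), 1217 of them shared, and 0 between 16 h and 15 h. Under the block the endothelial falls went from 6 to 2, and Plvap, Tie1, Cdh5, mt-Cytb, Gsta3, Glul, Col1a1 and Pde4b were the named genes whose calls ended (adjusted p = 0.0502 to 0.0735).

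Over the named genes and 22 alternatives, 2427 values kept their side of the threshold, 848 lost the call and 2 gained it. The direction of a call turned once, for Tmem192 with 24 libraries (log2 fold change 0.0623, adjusted p = 0.952). Genes called neither here nor there changed sign in 32 values of 11 genes, the furthest being Ctsd with 24 libraries (0.46). At this depth the simulated 1.5-fold changes were called for 56.7% of genes, so smaller differences can be missed.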

Other observations

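The calls of 99 genes (68 higher and 31 lower at night) passed without any 1 of the 8 libraries and also with either marker covariate. The genes named here were picked from them after their values were seen, so they are a description. Both a source and a receptor of adenosine were higher at night. Nt5e, the ectoenzyme CD73 that makes adenosine outside the cell, went from a mean of 33.1 CPM at 9 h to 49.2 CPM at night (log2 fold change 0.55, SE 0.08, adjusted p = 0.000127). Adora2b, an adenosine receptor gene, went from 74.9 to 116.1 CPM (0.62, SE 0.07, adjusted p = 1.92e-05). Several genes of actin filaments were higher as well: Palld, the palladin gene, with 72.8 and 116.5 CPM (0.67, SE 0.07, adjusted p = 8.39e-06), Lmod1, a leiomodin gene, with 27.9 and 47.6 CPM (0.77, SE 0.11, adjusted p = 0.000127), and Actn1, the alpha-actinin 1 gene, with 88.4 and 120.5 CPM (0.45, SE 0.07, adjusted p = 0.000175). Acta2, a fibroblast and mural marker, was also among the 99 (0.51), while its marker list had 6 positive and 6 negative values. What part cell numbers had in these rises was not tested. Adipor2, an adiponectin receptor gene, went from 314.9 to 446.6 CPM (0.49, SE 0.07, adjusted p = 0.000127).

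Among the 31 lower genes were leukocyte genes outside the fixed marker list. Itgb2, the beta chain of leukocyte integrins, went from 74.2 to 46.3 CPM (log2 fold change -0.68, SE 0.09, adjusted p = 0.000109). Itga4, an integrin alpha chain of leukocytes, went from 29.2 to 18.0 CPM (-0.70, SE 0.10, adjusted p = 0.000153). Cd180, a receptor of B cells and macrophages, went from 5.71 to 1.95 CPM (-1.55, SE 0.23, adjusted p = 0.000207). The part of cell numbers in these falls was not tested.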
